A study of Mus musculus with 6 samples.

Results

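The genes described here are 38 genes of mitosis and cytokinesis, taken from a named list and read on expression arrays of MIN6 cells. A gene was represented by the brightest of the probe sets that the array's annotation gives to that gene alone. Such a probe set was found for 37 of the 38 genes, and for Ccnb1 (cyclin B1) none was listed. All 37 passed the filter on low signals, out of 12614 genes tested. MIN6 is a mouse insulinoma line that models the insulin-producing beta cell but, unlike most beta cells, divides in culture. Control cells were electroporated with 100 pmol of a control siRNA, and the other cells with the same amount of an siRNA that targets TDP-43. Tardbp encodes TDP-43, a protein that binds RNA and regulates splicing. There were 3 arrays per group, both groups received an electroporation pulse, and the sources used here give no time from electroporation to RNA extraction. The labels do not say whether the replicates were separate cultures, so p-values measure the spread between these samples, which may be technical.

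Mitosis is driven by cyclin-dependent kinase 1 with its A- and B-type cyclins, which switch on a programme of kinases, kinesins and kinetochore proteins. Sister chromatids are held until the spindle checkpoint is satisfied, the anaphase-promoting complex then triggers their separation, and the central spindle directs cleavage of the cell. Most of these transcripts peak in the G2 and M phases, and in a bulk sample their level follows the share of dividing cells. A lower signal can come from fewer cells in G2 and M or from less RNA in each such cell, and these cannot be told apart here.

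Many genes of this programme carry a cell cycle genes homology region (CHR) beside the transcription start, read by the DREAM and MYB-MuvB complexes, and CCAAT boxes read by NF-Y. Promoter windows of 250 bases before to 50 bases after the start were taken from RefSeq (GRCm38.p6) for 31 of the 38 genes. The table held no entry for Aurkb, Ccna2, Cdc25c, Foxm1, Incenp, Kif20a and Tpx2. A CHR, searched as TTTGAA or TTTAAA on both strands, lay in the windows of 27 of these 31 genes. Counted by window, that is 87.9% of 33 member windows against 27.6% of all 32851 windows in the table. A CCAAT box, searched as CCAAT on both strands, lay in 75.8% of member windows and in 37.4% of all windows. Both motifs lay in 72.7% of member windows and in 10.7% of all windows. A match is a description of the letters, not evidence of binding. Windows of Bub1, Mad2l1, Nuf2 and Nusap1 held no CHR by this search.

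The 120 bases before the start of 5 members are shown because they hold both motifs and stand for 4 steps of division: kinetochore assembly (Cenpa), anaphase onset (Cdc20 and Ube2c), mitotic entry (Cdk1) and chromosome untangling (Top2a). Capitals mark the CHR and CCAAT matches, on either strand (TTCAAA and ATTGG are the reverse complements of TTTGAA and CCAAT), and each sequence is written along the gene's own strand.
Cenpa, chr5:30666766-30666885, plus strand: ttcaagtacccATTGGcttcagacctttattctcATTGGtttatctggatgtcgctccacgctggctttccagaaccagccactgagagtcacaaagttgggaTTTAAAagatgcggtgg
Cdc20, chr4:118437344-118437463, minus strand: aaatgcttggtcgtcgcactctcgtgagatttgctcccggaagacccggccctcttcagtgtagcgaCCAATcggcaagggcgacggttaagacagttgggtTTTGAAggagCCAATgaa
Ube2c, chr2:164769809-164769928, plus strand: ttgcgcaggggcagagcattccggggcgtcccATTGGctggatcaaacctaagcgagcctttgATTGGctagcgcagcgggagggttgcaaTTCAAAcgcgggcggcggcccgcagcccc
Cdk1, chr10:69352913-69353032, minus strand: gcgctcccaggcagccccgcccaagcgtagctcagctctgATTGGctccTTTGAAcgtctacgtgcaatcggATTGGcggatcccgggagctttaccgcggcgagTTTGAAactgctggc
Top2a, chr11:99024190-99024309, minus strand: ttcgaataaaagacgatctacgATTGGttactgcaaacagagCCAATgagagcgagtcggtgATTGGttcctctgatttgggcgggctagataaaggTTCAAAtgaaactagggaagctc
The nearest CHR before the start began 17 bases before it in Cenpa, 18 in Cdc20, 29 in Ube2c, 15 in Cdk1 and 23 in Top2a. Cenpa also held a TTTGAA at position 17 after the start, outside the stretch shown.

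The siRNA target fell. Tardbp read 3748, 3939.6 and 3699 on the control arrays and 2257, 2249 and 1836 on the TDP-43 siRNA arrays, which left 55.7% of the mean control signal on its brightest probe set. The other 4 Tardbp probe sets were also lower on every treated array than on any control array, by log2 differences from -1.41 to -0.86. Median signals of the 6 arrays ranged from 72.3 to 79.97, and precision is limited by how few arrays there were. A sign of RNA quality, the 3' minus 5' log2 signal of the b-actin control probe sets, ranged from 0.35 to 0.41 in control arrays and from 0.33 to 0.40 after TDP-43 siRNA. Beta cell genes gave strong signals on every array, with Iapp between 19671 and 23354 and Pdx1 between 5261 and 6645. Of 8 measured beta cell markers 0 passed by limma. The zinc transporter Slc30a8, at 0.25, was the 1 marker with an unadjusted p under 0.05, where 6.71% of all genes were higher. Every treated array of Slc30a8 (8537 to 9368) lay above every control array (7224 to 8152), as for 9.98% of all genes. Ucn3, with the next smallest p of these markers, was at -0.14. Of 8 measured markers of other islet, exocrine, stromal and immune cells, 0 passed by limma. Lower at an unadjusted p under 0.05 were 2 (Car2 at -0.76 and Col1a2 at -0.63, log2), where 5.86% of all genes were. Both were dim, with mean control signals of 174 for Car2 and 93.9 for Col1a2. Cela1 was at 0.15 and Lyz2 at 0.26. The acinar enzyme Cpa1, the duct keratin Krt19 and the leukocyte antigen Ptprc lay below the filter on low signals, and the alpha cell hormone Gcg gave a strong signal, between 7345 and 10654.

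After TDP-43 siRNA the signals of mitosis and cytokinesis genes were modestly lower across the list. All 37 measured genes had a difference below 0, where 45.1% of all genes tested did. The median difference was -0.23 (log2, TDP-43 siRNA minus control siRNA), against 0.02 over all genes tested, and single genes ranged from -0.49 (Kif20a) to -0.08 (Bub1). In linear terms, the mean signal left after TDP-43 siRNA ran from 71.3% of control for Kif20a to 94.8% for Bub1. Of the 37 genes, Kif20a and Cenpa (2) fell past the 0.05 threshold on limma's adjusted p, 0 rose, and the other 35 missed it. Among all genes tested, 0.579% passed as lower and 0.166% as higher, 0.745% in all. At an unadjusted p under 0.05, 24 of the 37 were lower and 0 higher, where 5.86% and 6.71% of all genes were. The 3 TDP-43 siRNA arrays lay below all 3 control arrays for 20 of the 37 genes, against 8.31% of all genes, and above them for 0 of the 37, against 9.98%. The same 6 arrays underlie all 37 genes, so these counts are not 37 separate observations. These genes and the lists below were also chosen with earlier results of these data known. The counts and shares therefore describe the genes and do not test a shift.

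**Figure D1:**
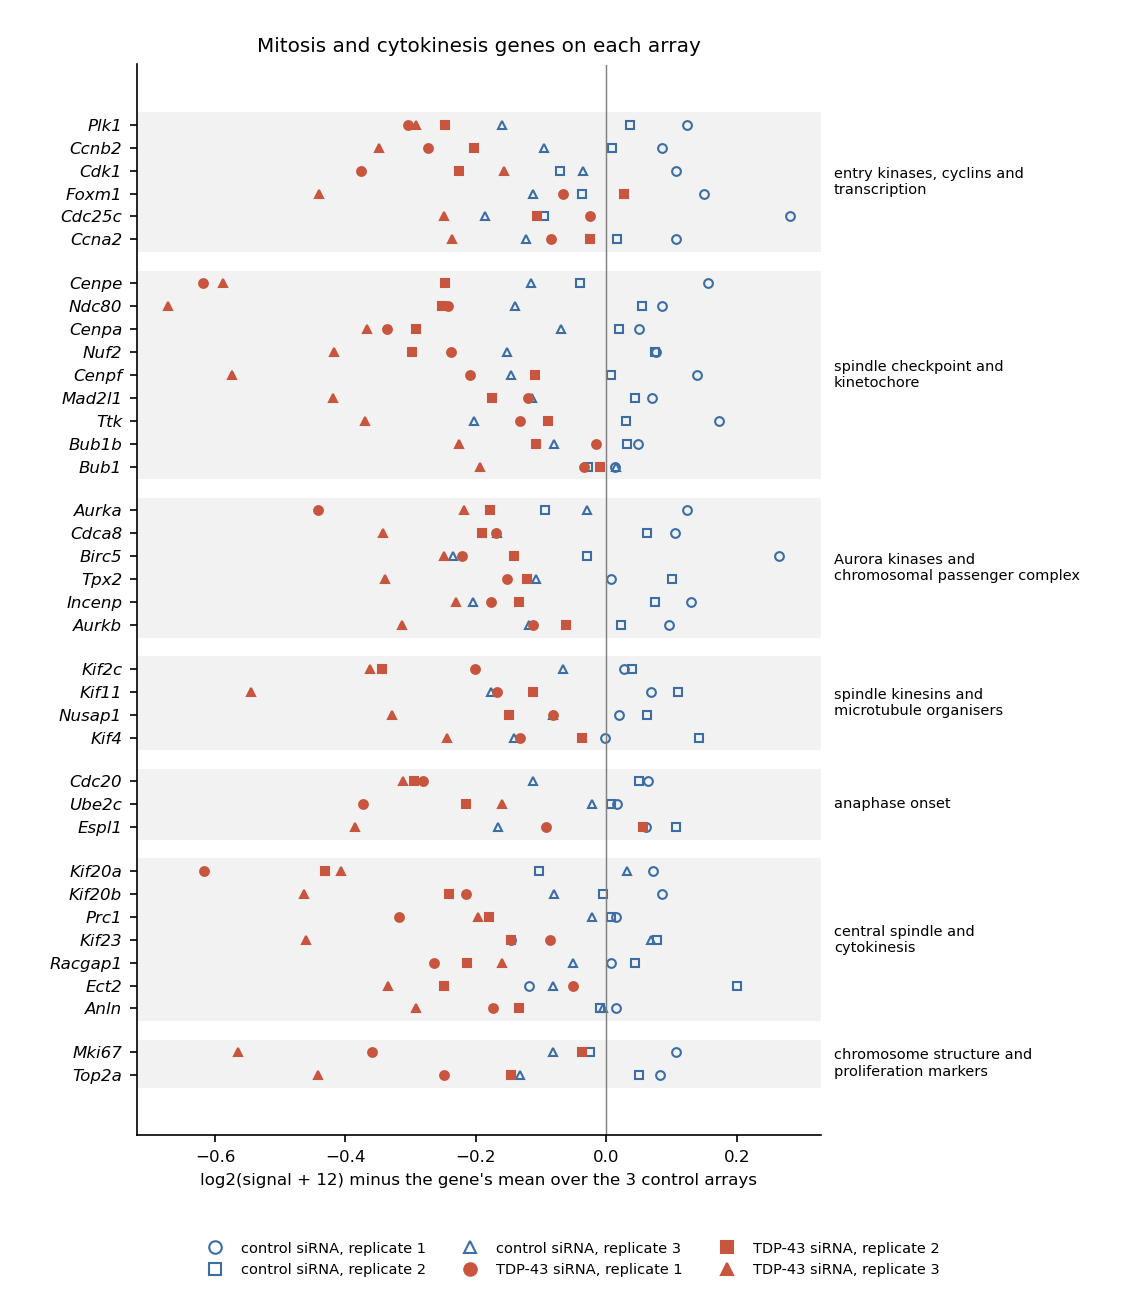
Each row is a gene and each symbol an array; the x axis gives log2(signal + 12) minus the gene's mean over the 3 control arrays, with open blue symbols for control siRNA and filled red symbols for TDP-43 siRNA. For 20 of the 37 genes the 3 red symbols lie left of the 3 blue ones, and the triangles (replicate 3) often lie leftmost in their own group.

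Genes of mitotic entry include the kinase Cdk1, its cyclins, the phosphatase Cdc25c that activates it, the kinase Plk1 and the transcription factor Foxm1. Of 6 measured, 0 passed by limma, and the median was -0.21. The 3 genes with an unadjusted p under 0.05 were all lower, where 5.86% of all genes were. Ccnb2, the cyclin B2 partner of Cdk1, read 3757, 3561 and 3312 in control arrays and 2927, 3072 and 2777 after TDP-43 siRNA. The groups did not overlap, and Ccnb2 was at -0.27 on the log2 scale (SE 0.07, n = 3 per group, limma adjusted p = 0.117). Cdk1 read 5424, 4792 and 4912 against 3878, 4306 and 4515, again without overlap, a difference of -0.25. Plk1, which acts at centrosomes, kinetochores and the midbody, was at -0.28, with all 3 treated arrays (1454 to 1511) below the controls (1607 to 1959). Ccna2 (cyclin A2), which already acts in S phase, was nearer 0: 5589.7, 5245 and 4762 in control arrays against 4893, 5098 and 4403, a difference of -0.12 with a 95% confidence interval from -0.28 to 0.05. Foxm1 was at -0.16 and Cdc25c at -0.13, both with overlapping groups and intervals that include 0.

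Spindle checkpoint and kinetochore genes, with 9 measured members, had a median of -0.30, and 1 fell by limma, where 0.579% of all genes did. Cenpa, the histone H3 variant that marks centromeres, read 3588, 3513 and 3299.9 in control arrays and 2743, 2829 and 2685 after TDP-43 siRNA. It fell by 0.33 (SE 0.06, n = 3 per group, limma adjusted p = 0.0389). The 95% interval of this difference ran from -0.46 to -0.20. Cenpe, the kinesin that carries chromosomes to the spindle equator, read 1242, 1084 and 1028 against 722, 937 and 737. Its difference of -0.48 (SE 0.11) matched that of Kif20a in size, but its arrays spread more and it did not pass (limma adjusted p = 0.101). The subunits Nuf2 and Ndc80 of the NDC80 complex, which binds microtubule ends, were measured. Nuf2 read 3211, 3207 and 2738 in control arrays and 2579.6, 2472 and 2275 after TDP-43 siRNA, a difference of -0.32, and Ndc80 was at -0.39. For both, the groups did not overlap.

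Among the checkpoint proteins, the kinase Bub1 had the smallest difference of the 37: its arrays read 2027, 1969.9 and 2030.05 in control cells and 1961, 1997 and 1756 after TDP-43 siRNA. The difference was -0.08 with a 95% confidence interval from -0.23 to 0.08. Bub1b (BubR1) read 806, 797 and 737 against 770.4, 722 and 664, a difference of -0.12 (its second probe set was at -0.31), and Ttk (the kinase Mps1) was at -0.20. In all 3 of these genes the groups overlapped. Mad2l1, which holds Cdc20 inactive until kinetochores attach, was at -0.24 and did not overlap between groups, though control replicate 3 (4796) and TDP-43 siRNA replicate 1 (4774) were close. The outer kinetochore protein Cenpf was at -0.30, with overlap.

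The Aurora kinases, the activator Tpx2 and the chromosomal passenger complex, which corrects faulty kinetochore attachments, had 6 measured members with a median of -0.20. None passed by limma, and 3 were lower at an unadjusted p under 0.05, where 5.86% of all genes were. Aurka, the spindle pole kinase, was at -0.28, its control arrays reading 2432, 2091 and 2186 and its treated arrays 1639, 1971 and 1918. Among subunits of the passenger complex, Cdca8 (borealin) was at -0.23, Birc5 (survivin) at -0.20, Incenp, the scaffold, at -0.18 and Aurkb, the kinase, at -0.16. Of these 4, Cdca8 was the 1 gene whose groups did not overlap, by a margin of 4115 against 4107. For Birc5 the control arrays themselves spread from 2951 to 4175, and control replicate 3 sat among the treated arrays at 2920.3 to 3147.

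Motor proteins and organisers of the spindle, with 4 measured genes, had a median of -0.23, and 0 passed by limma. Lower at an unadjusted p under 0.05 were 3, where 5.86% of all genes were. Kif2c (MCAK), which takes apart microtubule ends at centromeres, read 1844, 1858 and 1727 in control arrays and 1572, 1423 and 1405 after TDP-43 siRNA. The groups did not overlap, and Kif2c was at -0.30 (SE 0.07, n = 3 per group, limma adjusted p = 0.104). Kif11 (Eg5), which pushes spindle poles apart, was at -0.27 with overlapping groups. Nusap1, which bundles spindle microtubules, was at -0.19, and the chromokinesin Kif4 was at -0.14 with an interval that includes 0.

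At anaphase onset, Cdc20, which activates the anaphase-promoting complex, came next to the threshold. Its arrays read 8674, 8593 and 7676 in control cells and 6827, 6765 and 6684 after TDP-43 siRNA. The treated arrays agreed closely and all lay below the controls, with a difference of -0.30 (SE 0.06, n = 3 per group, limma adjusted p = 0.0555). Ube2c, the ubiquitin-conjugating enzyme of the same complex, read 6179, 6139 and 6015 against 4716, 5261 and 5469, a difference of -0.25 without overlap. Espl1, the separase that cuts cohesin, was at -0.14 with overlapping groups and an interval from -0.43 to 0.14.

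Central spindle and cytokinesis genes held the other gene that fell. Kif20a (MKLP2), a kinesin that moves the passenger complex to the central spindle, read 1599, 1415 and 1555 in control arrays and 988, 1125 and 1144 after TDP-43 siRNA. Control and treated arrays were far apart, and Kif20a fell by 0.49 (SE 0.08, n = 3 per group, limma adjusted p = 0.0306; 95% interval -0.67 to -0.30). Prc1, which bundles the antiparallel microtubules of the central spindle, read 2912, 2895 and 2837 against 2308, 2541 and 2513, a difference of -0.23. Racgap1, a centralspindlin subunit, read 2981, 3058 and 2864 against 2469, 2558 and 2655, a difference of -0.21. In both the groups did not overlap. The other centralspindlin subunit, Kif23 (MKLP1), was at -0.23 with overlapping groups, as was Ect2, the RhoA activator that centralspindlin recruits, at -0.21. Kif20b was at -0.31 and Anln (anillin), which scaffolds the contractile ring, at -0.20, both without overlap. Of the 7 measured genes of this step, 5 had treated arrays below all controls, against 8.31% of all genes. The median of the 7 was -0.23.

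The common proliferation marker Mki67 read 7113, 6491 and 6244 in control arrays and 5145, 6437 and 4463 after TDP-43 siRNA. TDP-43 siRNA replicate 2 lay inside the control range, and Mki67 was at -0.32 (SE 0.11, n = 3 per group, limma adjusted p = 0.273). Top2a, the topoisomerase that untangles sister chromatids, read 8322, 8131 and 7167 against 6611, 7099.6 and 5777, a difference of -0.28 without overlap.

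**Figure D2:**
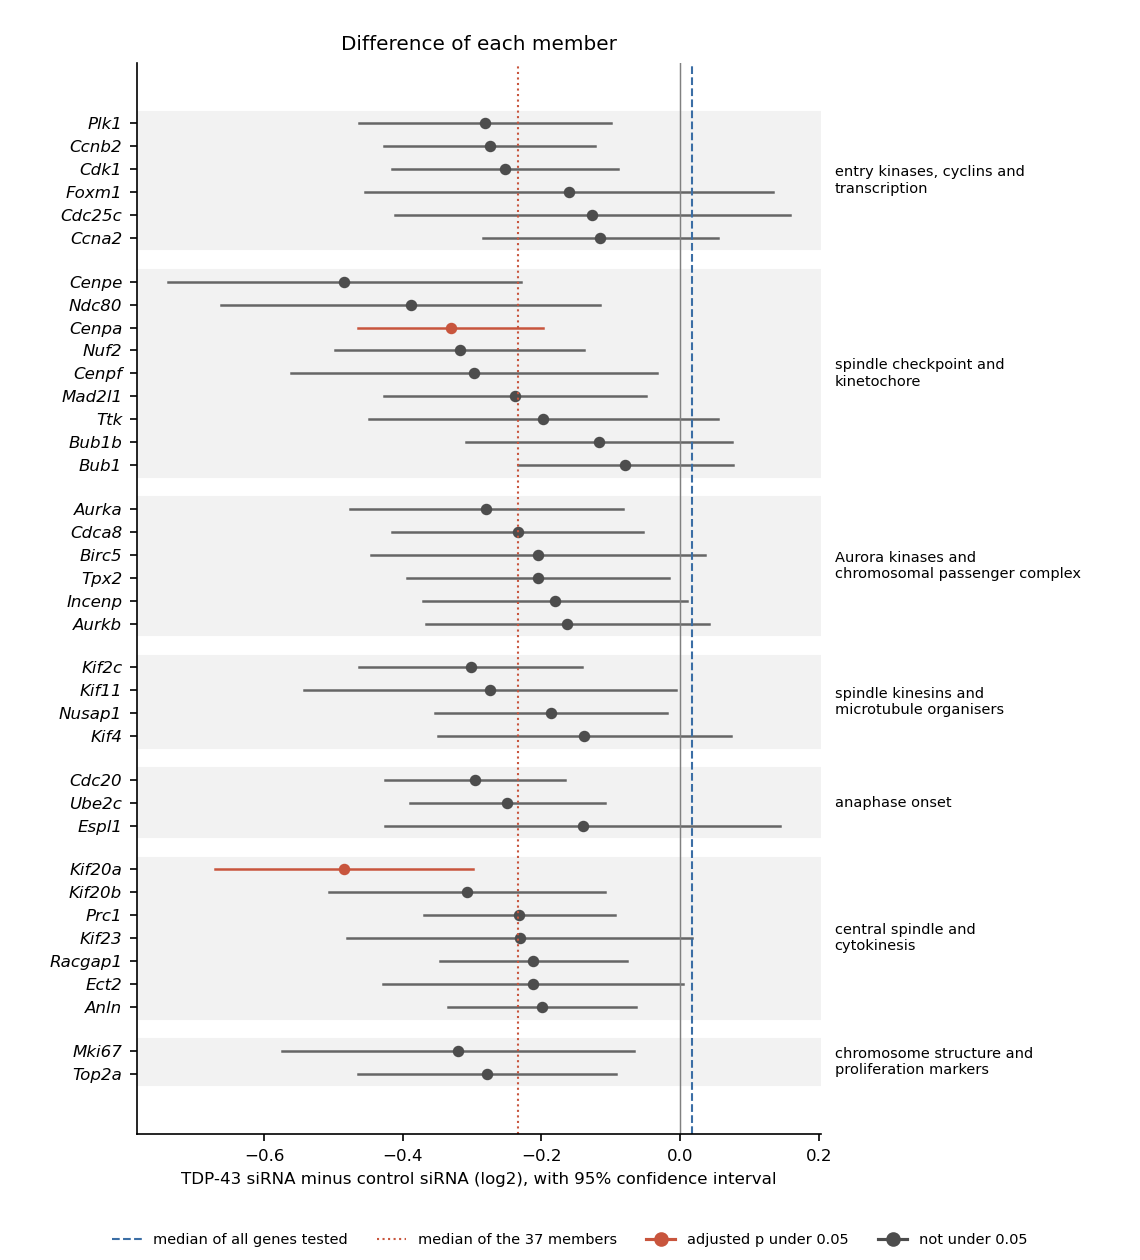
Points give the log2 difference of each gene (TDP-43 siRNA minus control siRNA) and bars its 95% confidence interval from the limma fit, with 3 arrays per group; red marks the 2 genes past the threshold, Cenpa and Kif20a. All 37 points lie below 0 and below the median of all genes tested, 0.02.

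The arrays of each group were not alike. Averaged over the 37 genes, each taken relative to its own mean over the 6 arrays, the control arrays stood at 0.20, 0.15 and 0.02 for replicates 1, 2 and 3 and the TDP-43 siRNA arrays at -0.10, -0.04 and -0.23. The groups did not overlap on this average, and control replicate 3 and TDP-43 siRNA replicate 2 were the closest pair across groups. Control replicate 3 was the lowest control array for 30 of the 37 genes, and TDP-43 siRNA replicate 3 the lowest treated array for 29. The highest of all 6 arrays was a control array for all 37 genes, and the lowest a treated array for all 37. The share of all genes with each of these patterns was not computed, so these counts only describe the arrays. Without control replicate 3, 7 of the 37 genes passed as lower by limma (Ccnb2, Cdc20, Cenpa, Incenp, Kif20a, Nuf2 and Plk1), where 0.912% of all genes did, and 0 as higher, where 1.18% did. The median then was -0.29, and 32 genes had groups that did not overlap, against 15.3% of all genes lower in this way. Without control replicate 1 or 2, or TDP-43 siRNA replicate 1, 2 or 3, 0 of the 37 passed. The median kept its sign in each of these fits, between -0.29 and -0.18. Kif20a and Cenpa were lower in all 6 fits, from -0.54 to -0.42 and from -0.37 to -0.31, and each passed in 1 of them.

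Several members were read by more than 1 probe set. Of 23 such genes, 19 had every probe set past the filter below 0, and 67 of the 72 probe sets of the members were below 0. Over all 23426 probe sets tested, 0.512% passed as lower, and 2 of the 72 did, the brightest ones of Cenpa and Kif20a. The second probe set of Cenpa was at the same -0.33 (223 to 267 in control arrays, 167 to 201 after TDP-43 siRNA), and those of Cdc20 ran from -0.30 to -0.22. The 4 probe sets of Kif2c ran from -0.53 to -0.27 and the 2 of Cenpe from -0.48 to -0.43. The Kif2c probe set at -0.53 was dim (mean signal 55.3), and its groups overlapped. Kif20a had a single probe set, so no second reading of it was available.

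Probe sets disagreed in sign for 4 genes, Anln, Bub1, Nusap1 and Tpx2. For Anln the second probe set was at 0.25 (252 to 342 in control arrays, 329.7 to 384 after TDP-43 siRNA) against -0.20 for the brightest, and for Nusap1 at 0.24 against -0.19. For Tpx2 the brightest of 4 probe sets was at -0.20, the second at 0.0089 and the others at 0.074 and -0.68. The Tpx2 probe set at -0.68 was dim (mean signal 69.4), and its groups overlapped. The second probe set of Bub1 was at 0.052. None of these second probe sets passed. In the other direction, the second probe sets of Bub1b (-0.31) and Cdc25c (-0.45) were further below 0 than the brightest and did not overlap between groups.

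**Figure D3:**
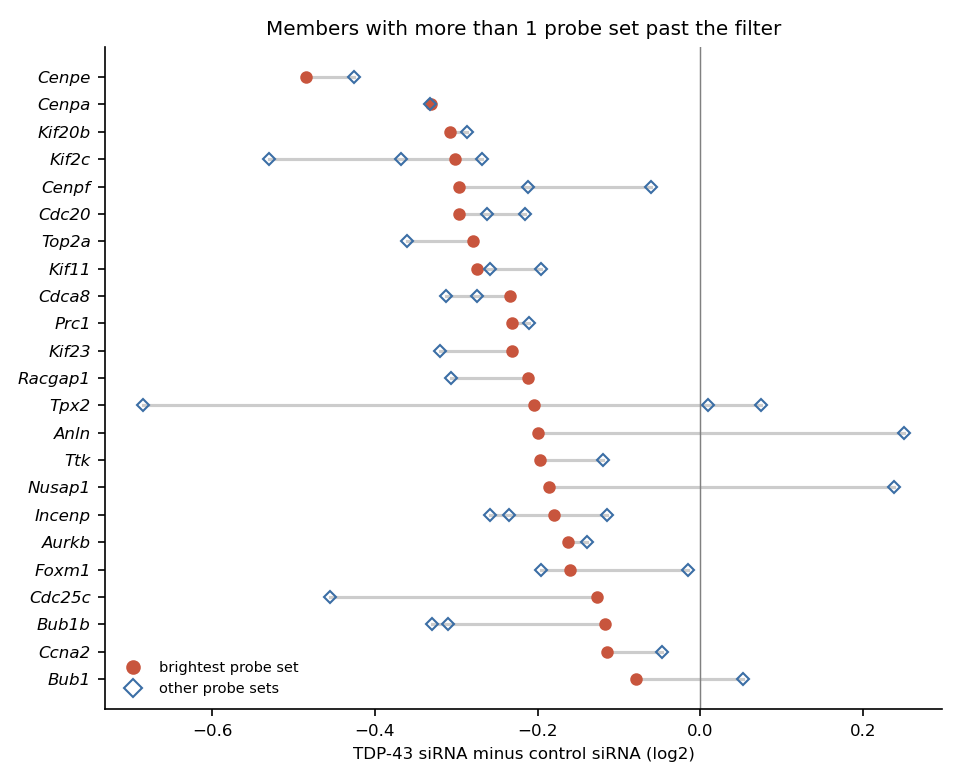
Rows are the 23 members with more than 1 probe set past the filter, and the x axis gives the log2 difference, TDP-43 siRNA minus control siRNA; red circles are the brightest probe set and blue diamonds the others. For 19 genes every symbol lies below 0, and for Anln, Nusap1, Tpx2 and Bub1 symbols lie on both sides.

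Other genes of mitosis were listed by function in 6 groups of 141 genes, of which 134 were measured. By limma 0 passed in either direction. At an unadjusted p under 0.05 there were 28 lower and 0 higher, where 5.86% and 6.71% of all genes were. The median of the 134 was -0.11, and 109 lay below 0, against 45.1% of all genes. The treated arrays lay below all controls for 33, against 8.31% of all genes, and above them for 1, against 9.98%. Other kinetochore and checkpoint genes had a median of -0.14 (35 measured, 32 below 0), with the checkpoint protein Zwilch at -0.24 and the centromere protein Cenpw at -0.38. Other spindle and cytokinesis genes had a median of -0.15 (38 measured, 33 below 0), with the spindle pole protein Aspm at -0.34 and Cdca3 at -0.26. Condensin, cohesin and separase control genes had a median of -0.10 (18 measured), with the condensin subunits Ncapg at -0.34 and Smc4 at -0.15. Subunits and partners of the anaphase-promoting complex had a median of -0.13 (17 measured, 16 below 0), with Anapc10 at -0.42 and Anapc1 at -0.25.

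Lists of regulators upstream of these genes had medians nearer 0 than the members, as did all the other lists of mitosis genes described above. Genes of the DREAM and MYB-MuvB complexes, of the E2F and NF-Y factors and of the retinoblastoma family had a median of 0.01 (16 measured, 7 below 0), with Rb1 at 0.18 and Lin37 at -0.17, and 0 had an unadjusted p under 0.05. Other genes that control CDK1 had a median of -0.09 (10 measured, 6 below 0), with Cks2 at -0.13 and Cks1b at -0.15. Of these 10, 3 were lower and 0 higher at an unadjusted p under 0.05, where 5.86% and 6.71% of all genes were. Tested genes that held both a CHR and a CCAAT box within 100 bases before to 50 bases after the start, members left out, numbered 252, and their median was -0.03 against 0.02 for the 9946 without both. For 18.3% of the 252 the treated arrays lay below all controls, against 8.10% of the others. Only the members were left out, so genes of the other mitosis lists can be among the 252. Among the members themselves, the 21 tested genes with both motifs in the window had a median of -0.25 and the 9 that lacked either a median of -0.24. These differences between lists were not tested.

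G1/S and DNA replication genes act before mitosis and also follow the share of cycling cells. Of 36 measured, 0 passed by limma. At an unadjusted p under 0.05, 10 were lower and 1 higher, where 5.86% and 6.71% of all genes were. The median was -0.13 and 34 lay below 0, with the cyclin Ccne1 at -0.55 and the replication factor Gins1 at -0.38. For 5 of the 36 the treated arrays lay below all controls, against 8.31% of all genes, and for 1 above them, against 9.98%. Array means of the 36 genes were 0.11, 0.13 and -0.03 in control arrays and -0.01, -0.02 and -0.18 after TDP-43 siRNA. Control replicate 3 thus lay among the treated arrays, which it did not on the average over the 37 members. Whether the lists differ in their shift was not tested. Among 11 measured cyclin-dependent kinase inhibitors and D-type cyclins with their kinases, 1 fell by limma and 0 rose. Over all genes these shares were 0.579% and 0.166%. The gene that fell was Cdkn2d (p19 of the INK4 family), by 0.55 (SE 0.09, n = 3 per group, limma adjusted p = 0.0247). At an unadjusted p under 0.05, 2 of the 11 were lower and 2 higher, where 5.86% and 6.71% of all genes were. Beside Cdkn2d these were Cdkn1b at -0.27, Ccnd1 at 0.67 (mean control signal 87.3) and Ccnd3 at 0.28. The median gene of this list was the inhibitor Cdkn1a, at -0.0034 with a 95% interval from -0.19 to 0.18 (named after its value was seen).

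**Figure D4:**
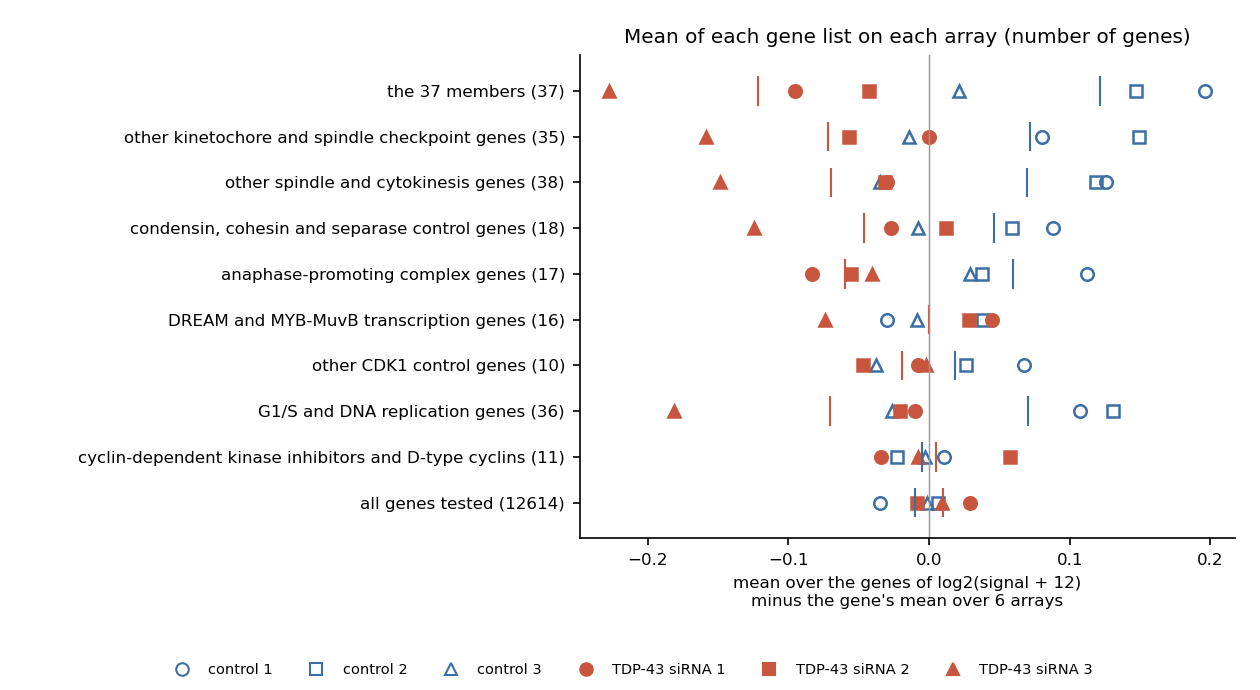
Each symbol is an array's mean over a gene list of log2(signal + 12) minus the gene's mean over the 6 arrays, with vertical bars at the group means. Control and TDP-43 siRNA arrays do not overlap for the 37 members or for the anaphase-promoting complex genes, and overlap for the other lists shown.

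**Figure D5:**
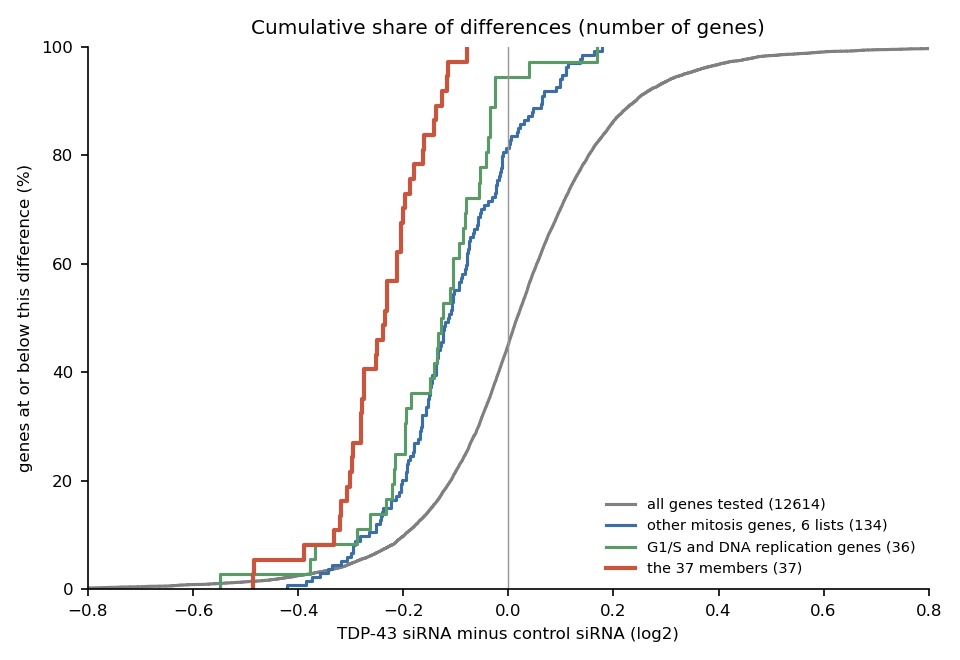
Curves give the percentage of genes at or below each log2 difference (TDP-43 siRNA minus control siRNA), shown from -0.8 to 0.8. The curve of the 37 members reaches 100% below 0, at -0.08, that of all genes tested crosses 0 at 45.1%, and 109 of the 134 other mitosis genes and 34 of the 36 G1/S and replication genes lie below 0. The lowest G1/S gene, Ccne1 at -0.55, lies left of the lowest member, Kif20a at -0.49.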

How the data were processed

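Biotinylated cRNA of 6 MIN6 samples was hybridised to mouse arrays. The submitters' processing notes name MAS5, and the table the authors deposited gives linear signal intensity values, not log2, for 45101 probe sets. The sources used here give no software version. Gene names came from the platform annotation, with symbols updated through RefSeq gene numbers. Of these, 34945 had 1 gene, 932 several and 9160 none listed, beside 64 controls.

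The value 12 was added before log2. Probe sets in the lowest 40% by the mean of these values were left out, and each gene was represented by its single-gene probe set with the highest mean. The comparison used limma 3.58.1 under R 4.3.3 (intensity trend, two-sided, Benjamini-Hochberg over all 12614 genes, threshold 0.05). Differences are given with the fit's standard error (SE), as TDP-43 siRNA minus control siRNA. The fit was run on simulated data with independent noise and changes larger than those of the members. Recovery of smaller differences was not examined. Figures were drawn with matplotlib 3.10.9.

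The members, the lists and the tests were chosen with earlier results of these data known. All 38 members were to be named, with Tardbp and, of each other list, the genes past the threshold or else the 2 with the smallest p. Iapp, Pdx1 and markers below the filter are named beyond this rule, as the check of the cell type. Cdkn1a, Cdkn1b, Ccnd1 and Ccnd3 are also beyond it, named after their values were seen. Array values are given for members past the threshold, the 10 with the smallest p, the 3 brightest and the 3 nearest 0, and for others where noted. Alternatives were other pseudocounts, filters, scalings, variance models and probe set rules, the replicate number as a block and arrays left out. No list was given a test of its own.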

Additional observations from a re-analysis of the deposited data

How the results depend on the processing

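The limits here are 3 arrays per group and a single probe set for several members. The median of the members kept its sign and moved by less than the spread between arrays in all 19 alternatives. Of 94 genes past the threshold and 2 members among them, no filter left 51 and 0, no intensity trend 12 and 0, median centring 0 members, averaging probe sets within a gene 1 member, and array weights gave 163 genes. Leaving out arrays in turn gave 32 to 264 genes, 0 to 7 members and, of the 20 members whose groups did not overlap, 20 to 32 (11.4% to 15.3% of all genes). Without both arrays numbered 3 there were 226 genes, 4 members and 32 without overlap (20.2% of all genes). With the next brightest probe set, which 23 members have, there were 33 genes, 0 members and 9 without overlap (8.03% of all genes in that setting). The causes were not tested, except that this last setting tests fewer genes. Signs turned for Nusap1 (0.026) and Anln (0.025) with averaged probe sets, for Bub1 (0.052), Tpx2 (0.0089), Nusap1 (0.24) and Anln (0.25) with the next brightest probe set, and for Cdc25c without control replicate 1 (0.014; leaving out arrays moved it from -0.22 to 0.014).

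Deviations from the group means correlated at -0.12, -0.14 and 0.24 for arrays sharing number 1, 2 and 3, and the main fit did not pair them. Between unlike numbers, control replicate 2 and TDP-43 siRNA replicate 1 were at 0.30, and control replicate 1 and TDP-43 siRNA replicate 2 at 0.23. The remaining correlations ran from -0.18 to -0.08. Whether the samples were paired in another order was not tested. With the replicate block 127 genes and 3 members passed, Cdc20 beside Cenpa and Kif20a.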
